A study of Homo sapiens with 9 samples.

Results

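The genes described here encode the machinery of MHC class I antigen presentation, chosen by name as HLA-B, HLA-C, B2M, TAP1, TAP2, TAPBP, NLRC5, PSMB8 and PSMB9. They are 9 of the 58381 genes in the deposited tables, and all 9 were among the 17235 genes that passed the filter on low counts. Transcripts were measured by bulk sequencing of mRNA libraries from TC-32, an established Ewing sarcoma cell line whose EWSR1::FLI1 fusion drives the tumour. All groups carried the lentiviral pLOC vector and had been selected with puromycin at 2 µg/ml, in medium with fetal bovine serum, and sorted as single cells. The RFP group (3 libraries) expressed red fluorescent protein from it, and the ETS1-Low and ETS1-High groups (3 libraries each) expressed a synthetic cDNA of ETS1, a transcription factor of the same family as FLI1. The design describes the ETS1-High cells as clones with about as much ETS1 as EWSR1::FLI1-depleted cells have, and the ETS1-Low cells as having less. The labels do not give the number of clones behind each group or say that its 3 libraries came from separate cultures, so differences between clones and the effect of ETS1 cannot be told apart, and p-values measure only the spread between these libraries. Fewer cells making a transcript and less of it per cell also cannot be told apart in bulk samples.

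MHC class I molecules carry short peptides from proteins made inside the cell to its surface, where CD8 T cells and natural killer cells inspect them. Proteasomes cut the proteins, with PSMB8 and PSMB9 taking the place of constitutive catalytic subunits in the immunoproteasome. The TAP1 and TAP2 transporter moves the peptides into the endoplasmic reticulum, tapasin (TAPBP) bridges it to an empty molecule made of an HLA heavy chain and B2M, and NLRC5 is the transactivator of these genes. Low class I expression has long been described in Ewing sarcoma.

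Promoter sequences are shown first, because they hold the elements through which class I genes are known to be switched on. RefSeq windows (GRCh38.p14) matched 8 of the 9 members, and NLRC5 had no entry. Of each window, the 250 bases before the start were searched on both strands for 6 motifs: the interferon-stimulated response element (ISRE, searched as GAAA, any 2 bases and GAAA, in 3.02% of 35116 windows), the interferon-gamma activated site (TTCNNNGAA, in 6.57%), the kappaB site (in 9.96%), the cAMP response element core TGACG (in 21.2%), the CCAAT box (in 32%) and the ETS family site CCGGAA (in 14.5%). HLA-B, HLA-C and B2M, the 3 chains of the class I molecule among the members, each held kappaB, TGACG and CCAAT matches in the 140 bases shown, with all matches in capitals on either strand. In these lines the bases are counted from the start of transcription, which is base 1, and the sequence reads along the gene.
HLA-B, chr6:31357220-31357359, minus strand, bases -180 to -41: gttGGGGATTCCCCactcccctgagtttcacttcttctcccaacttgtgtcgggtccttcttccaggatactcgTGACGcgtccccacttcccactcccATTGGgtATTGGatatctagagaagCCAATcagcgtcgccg
HLA-C, chr6:31272133-31272272, minus strand, bases -180 to -41: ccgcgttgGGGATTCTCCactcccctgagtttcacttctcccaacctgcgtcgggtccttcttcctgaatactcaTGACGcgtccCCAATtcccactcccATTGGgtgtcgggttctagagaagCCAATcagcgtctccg
B2M, chr15:44711337-44711476, plus strand, bases -180 to -41: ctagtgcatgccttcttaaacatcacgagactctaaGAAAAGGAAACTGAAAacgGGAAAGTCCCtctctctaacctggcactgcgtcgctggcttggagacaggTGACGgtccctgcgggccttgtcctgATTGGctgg

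The B2M capitals begin with 2 ISRE matches that overlap each other, and the HLA-B kappaB run holds overlapping matches that read the same way on both strands. No match to the searched form of the ISRE lay in the HLA-B or HLA-C window, and looser forms were not searched. The 30 bases around the ISRE matches of the transporter, tapasin and proteasome genes are shown next, with the matches in capitals, including PSMB10, the third immunoproteasome subunit.
TAP1, chr6:32853816-32853845, minus strand, bases -141 to -112: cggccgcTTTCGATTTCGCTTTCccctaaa
TAP2, chr6:32838778-32838807, minus strand, bases -68 to -39: ctggggaagcGAAAGCGAAAgctgcccgag
TAPBP, chr6:33314076-33314105, minus strand, bases -27 to 3: tttggagGAAAGTGAAAGTGAAAggaggaa
PSMB8, chr6:32844032-32844061, minus strand, bases -14 to 16: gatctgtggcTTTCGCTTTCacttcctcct
PSMB10, chr16:67936852-67936881, minus strand, bases -31 to -2: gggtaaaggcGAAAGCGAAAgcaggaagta

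ISRE matches before the start were thus found in 4 of the 8 members with a window, B2M, TAP1, TAP2 and TAPBP. That of PSMB8 spans the second of its 2 RefSeq starts and is not in the 250 bases searched. The TAP1 and TAPBP capitals hold 2 overlapping matches each. The first TAP1 start and the PSMB9 start lie 488 bases apart on opposite strands of chromosome 6, and no ISRE match was in the PSMB9 window. The motifs of the class I chains were also found before other members. There, kappaB matches lay before TAP1 and TAPBP, TGACG before TAP2, PSMB8 and PSMB9, and CCAAT before TAP1 and PSMB9. The interferon-gamma activated site matched before the second starts of TAP1 and PSMB8 and before no other member. CCGGAA, the only form of the ETS family site searched, was found in 1 member, before the second TAP1 start. Other forms of that site and of the ISRE were not searched, so members without a match cannot be said to lack either. These are matches of letters and were not tested as binding sites.

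Most of the genes of this machinery were more abundant in both ETS1 groups than in RFP cells. With ETS1-High, 8 of 9 members were higher than in RFP and 0 lower (edgeR, Benjamini-Hochberg adjusted p under 0.05), against 37% of all genes tested called higher, 37.2% lower and 74.2% in either direction. With ETS1-Low all 9 were higher, against 37.9% of all genes called higher, 36.2% lower and 74.1% in all. Most genes of the transcriptome passed this test, so sizes are given beside the calls. At least 2-fold higher were 5 of 9 members with ETS1-High (TAP1, TAP2, NLRC5, PSMB8 and PSMB9), against 9.64% of all genes, and 4 of 9 with ETS1-Low (the same without TAP2), against 8.47%. The median log2 fold change of the members was 1.06 with ETS1-High and 0.98 with ETS1-Low, and that of all genes tested was -0.01 and 0.01. Both comparisons use the same 3 RFP libraries. Tested against a minimum change of 2-fold, 4 members were called higher in each comparison. Of the 17235 genes, 2608 were then called in either direction with ETS1-High and 2530 with ETS1-Low.

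**Figure D1:**
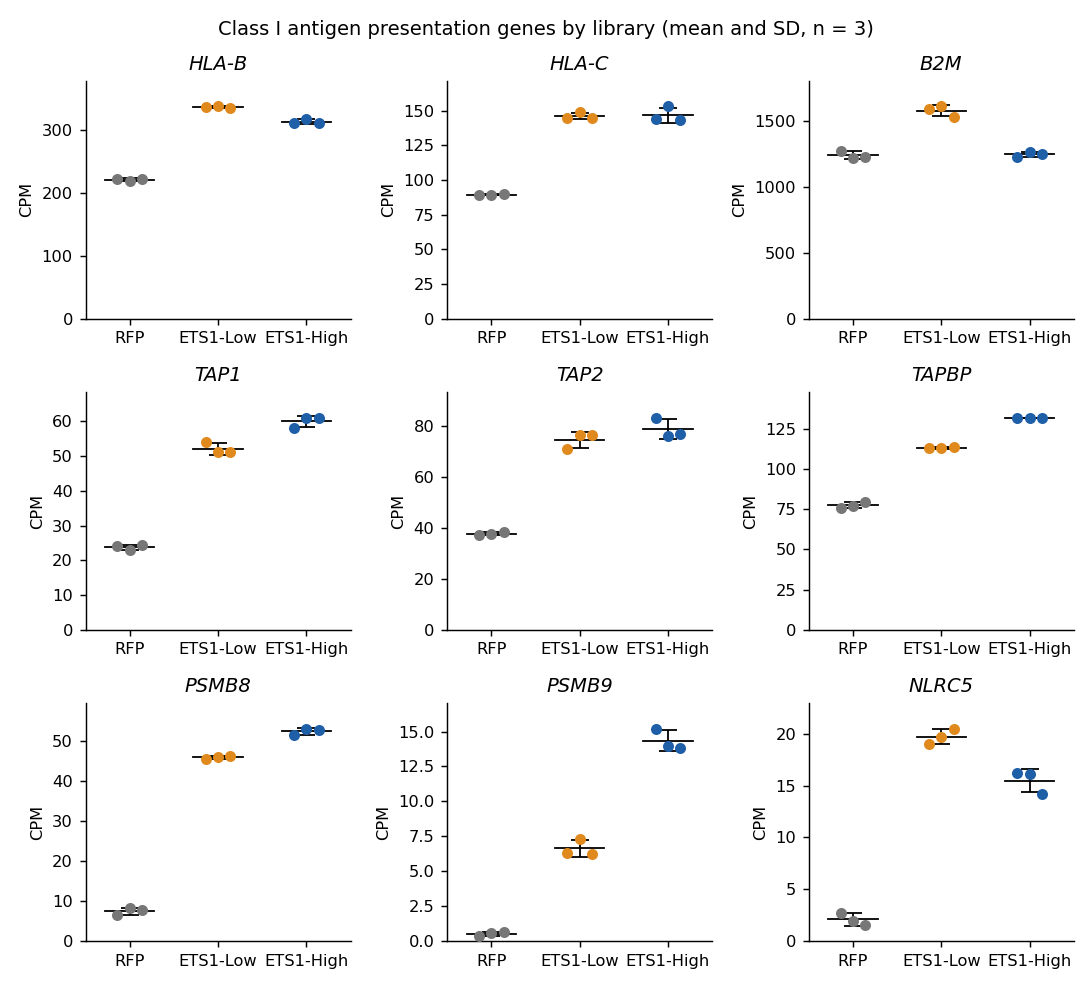
CPM (counts scaled to a common library size, linear axis from 0) of each of the 9 members by group, with its own axis for each gene, 1 point a library and black lines for the mean and SD (n = 3). PSMB8, PSMB9 and NLRC5 lie close to 0 in RFP and far above it in both ETS1 groups, while the B2M points of RFP and ETS1-High lie at the same height.

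The class I chains themselves changed by less than 2-fold. HLA-B (chromosome 6, 31353872 to 31367067, minus strand, GRCh38), a classical heavy chain, had 223, 219 and 222 CPM in the RFP libraries, 337, 338 and 335 in ETS1-Low and 312, 318 and 311 in ETS1-High. All 6 ETS1 libraries lay above all 3 RFP libraries, and the ETS1-High libraries lay just below the ETS1-Low ones. The log2 fold change was 0.50 (SE 0.03, adjusted p = 1.15e-21, edgeR) for ETS1-High and 0.61 (SE 0.03, adjusted p = 5.88e-25) for ETS1-Low. HLA-C (chromosome 6, 31268749 to 31272130, minus strand), the other classical chain among the members and a ligand of killer cell receptors, had 89, 89.5 and 90 CPM in RFP, 145, 149 and 145 in ETS1-Low and 144, 153 and 143 in ETS1-High. Its ETS1 libraries were all above RFP and overlapped each other, with a log2 fold change of 0.71 in both comparisons (adjusted p = 5.08e-26 for ETS1-High and 5.35e-26 for ETS1-Low, edgeR). HLA genes resemble each other, and RSEM divided shared reads between them: the expected counts of HLA-B and HLA-C were not whole numbers in 9 of 9 libraries.

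B2M (chromosome 15, 44711358 to 44718851, plus strand), the light chain shared by class I molecules, was the only member not called with ETS1-High. It had 1278, 1220 and 1231 CPM in RFP, 1594, 1613 and 1532 in ETS1-Low and 1228, 1267 and 1251 in ETS1-High. The RFP and ETS1-High libraries overlapped, and all 3 ETS1-Low libraries lay above both. The log2 fold change against RFP was 0.35 for ETS1-Low (SE 0.03, adjusted p = 7.33e-15, edgeR) and 0.01 for ETS1-High (95% interval -0.05 to 0.07, adjusted p = 0.852). On the authors' FPKM scale, where the median gene was shifted by -0.11, B2M was instead called lower with ETS1-High, by a log2 fold change of -0.12 (limma, adjusted p 0.00153 to 0.00441 over 3 settings).

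Levels of different genes can be compared only per length, as FPKM (fragments scaled to gene length and library size). On that scale B2M exceeded both heavy chains in every library. The ratio of B2M to HLA-B was 8.95, 9.2 and 9.48 in the RFP libraries, 8.29, 8.03 and 7.86 in ETS1-Low and 6.88, 6.86 and 6.89 in ETS1-High. That of B2M to HLA-C was 33.5 ± 1.03 in RFP, 25.7 ± 0.765 in ETS1-Low and 20.3 ± 0.584 in ETS1-High (mean ± SD, n = 3). Both ratios were thus lowest in ETS1-High, and no library overlapped between groups. No test was made of these ratios.

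The peptide transporter genes rose by about 2-fold. TAP1 (chromosome 6, 32845209 to 32853816, minus strand), one chain of the transporter, had 24, 22.9 and 24.4 CPM in RFP, 54.2, 51.2 and 51.1 in ETS1-Low and 58.2, 61.1 and 60.9 in ETS1-High. The groups were fully separate and ordered RFP, ETS1-Low, ETS1-High. The fold was 2.53 with ETS1-High (log2 1.34, SE 0.04, adjusted p = 2.57e-33, edgeR) and 2.19 with ETS1-Low (log2 1.13, adjusted p = 8.18e-30). TAP2 (chromosome 6, 32821833 to 32838739, minus strand), the partner chain, had 37.3, 37.4 and 38.5 CPM in RFP, 70.9, 76.5 and 76.2 in ETS1-Low and 83.2, 76 and 76.9 in ETS1-High. Its ETS1 libraries overlapped each other and lay far above RFP, by 2.08-fold with ETS1-High (log2 1.06, adjusted p = 1.38e-29, edgeR) and 1.98-fold with ETS1-Low (log2 0.98, adjusted p = 4.71e-28). TAP2 shares exon sequence with a same-strand annotated gene, ENSG00000250264, and its expected counts were not whole in 9 of 9 libraries.

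TAPBP (chromosome 6, 33299694 to 33314284, minus strand), which holds empty class I molecules at the transporter, had 75.9, 77.3 and 79.5 CPM in RFP, 113, 113 and 114 in ETS1-Low and 132, 132 and 132 in ETS1-High. The 3 groups did not overlap, and the spread within each was small. The log2 fold change was 0.77 with ETS1-High (adjusted p = 8.06e-28, edgeR) and 0.54 with ETS1-Low (adjusted p = 1.68e-21).

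Both immunoproteasome subunits rose, and PSMB9 had the largest fold of the 9 members in both comparisons with RFP. PSMB9 (chromosome 6, 32844136 to 32859851, plus strand), which replaces the constitutive subunit PSMB6, had low counts in RFP, with 18, 25 and 30 counts (0.374, 0.533 and 0.615 CPM). It had 239, 329 and 256 counts in ETS1-Low (6.32, 7.32 and 6.25 CPM) and 597, 628 and 617 in ETS1-High (15.2, 14 and 13.8 CPM). The groups were fully separate, and every ETS1-High library lay well above every ETS1-Low library. PSMB9 was 28-fold higher with ETS1-High (log2 4.81, SE 0.12, adjusted p = 2.81e-36, edgeR) and 13-fold higher with ETS1-Low (log2 3.70, SE 0.14, adjusted p = 2.73e-29). PSMB8 (chromosome 6, 32840717 to 32844679, minus strand), which replaces PSMB5, had 6.46, 8.13 and 7.64 CPM in RFP, 45.5, 46 and 46.1 in ETS1-Low and 51.4, 53 and 52.7 in ETS1-High. It too separated the groups without overlap, at 7.07-fold with ETS1-High (log2 2.82, SE 0.05, adjusted p = 1.39e-42, edgeR) and 6.19-fold with ETS1-Low (log2 2.63, adjusted p = 7.12e-41).

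PSMB8, PSMB9 and TAP1 lie side by side on chromosome 6, and PSMB8 and PSMB9 overlap in exon sequence on opposite strands. The antisense gene PSMB8-AS1, which overlaps all 3, had 12, 10 and 15 counts in RFP, 53, 54 and 59 in ETS1-Low and 74, 102 and 87 in ETS1-High. They were small beside the counts of PSMB8, but not beside the 18, 25 and 30 counts of PSMB9 in RFP, with which PSMB8-AS1 shares exon sequence on the same strand. The expected counts were not whole in 0 of 9 libraries for PSMB9 and in 1 of 9 for PSMB8, so few reads were divided there. Whether the counting used strand is not given in the sources used here, and strand would not separate PSMB9 from PSMB8-AS1. Reads of these overlapping stretches thus cannot be assigned to 1 gene with certainty.

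The balance between these subunits and their constitutive partners was compared within each library. PSMB5 had a mean of 122 CPM in RFP, 126 in ETS1-Low and 114 in ETS1-High, and PSMB6 had 101, 102 and 89.4. Against RFP, the log2 changes were 0.05 and 0.01 with ETS1-Low, though -0.09 and -0.13 in limma on FPKM, and -0.09 and -0.18 with ETS1-High. The FPKM ratio of PSMB8 to PSMB5 was 0.051, 0.0707 and 0.0607 in RFP, 0.358, 0.37 and 0.361 in ETS1-Low and 0.458, 0.476 and 0.457 in ETS1-High. PSMB8 thus stayed below PSMB5 in every library but came closer to it, a log2 difference of 2.94 with ETS1-High and 2.59 with ETS1-Low. The ratio of PSMB9 to PSMB6 was 0.00397, 0.00574 and 0.00652 in RFP, 0.064, 0.0778 and 0.065 in ETS1-Low and 0.184, 0.166 and 0.158 in ETS1-High, a log2 difference of 5.00 and 3.70. The third pair changed less. PSMB7 itself fell, from a mean of 160 CPM in RFP to 115 in ETS1-Low (log2 -0.48, edgeR adjusted p = 3.87e-19) and 145 in ETS1-High (log2 -0.14, adjusted p = 5.39e-05). With ETS1-Low its fall was larger than the 0.39 by which PSMB10 rose. The ratio of PSMB10 to PSMB7 was 0.0954 ± 0.00249 in RFP, 0.158 ± 0.0123 in ETS1-Low and 0.143 ± 0.00569 in ETS1-High (mean ± SD, n = 3). All 9 comparisons of these ratios between groups showed no overlap of libraries, with p = 0.1 in each by an exact two-sided permutation test (adjusted 0.1 over the 9 tests), the smallest p that 3 against 3 libraries allow. The order of ETS1-Low and ETS1-High for PSMB10 to PSMB7 depended on the unit, since the log2 difference was -0.14 from FPKM and 0.18 from CPM.

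**Figure D2:**
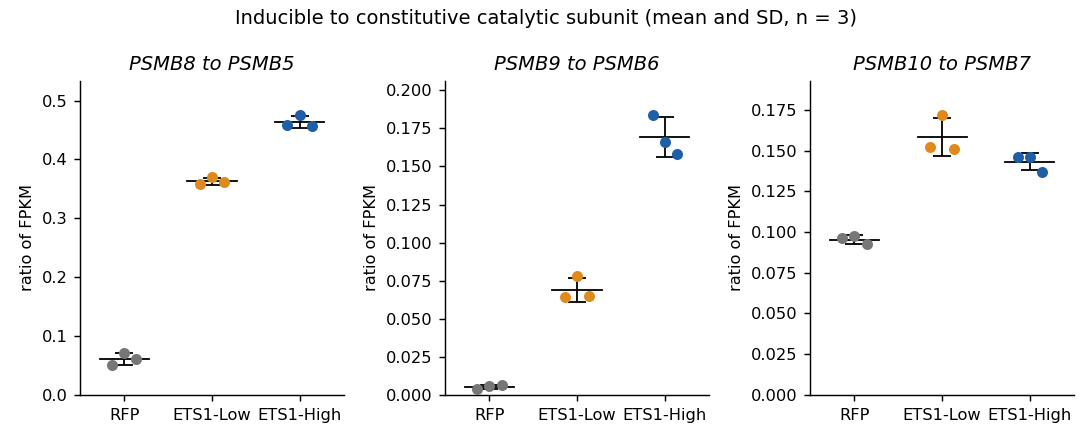
Within-library FPKM ratio (linear axis from 0, its own for each pair) of each immunoproteasome subunit to its constitutive partner by group, 1 point a library and black lines for the mean and SD (n = 3). PSMB9 to PSMB6 ran from a mean of 0.00541 in RFP to 0.169 in ETS1-High, and the PSMB10 to PSMB7 ratio moved least.

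NLRC5 (chromosome 16, 56989485 to 57083531, plus strand), the class I transactivator, was scarce in RFP and higher in both ETS1 groups. It had 2.74, 1.94 and 1.54 CPM in RFP (132, 91 and 75 counts), 19, 19.7 and 20.5 in ETS1-Low and 16.2, 16.1 and 14.2 in ETS1-High. The 3 groups did not overlap, and here ETS1-Low was the highest. The fold was 7.47 with ETS1-High (log2 2.90, SE 0.12, adjusted p = 3.32e-13, edgeR) and 9.51 with ETS1-Low (log2 3.25, SE 0.12, adjusted p = 4.44e-14). CIITA, the related transactivator of class II genes, had 0 to 7 counts in a library and was not tested.

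**Figure D3:**
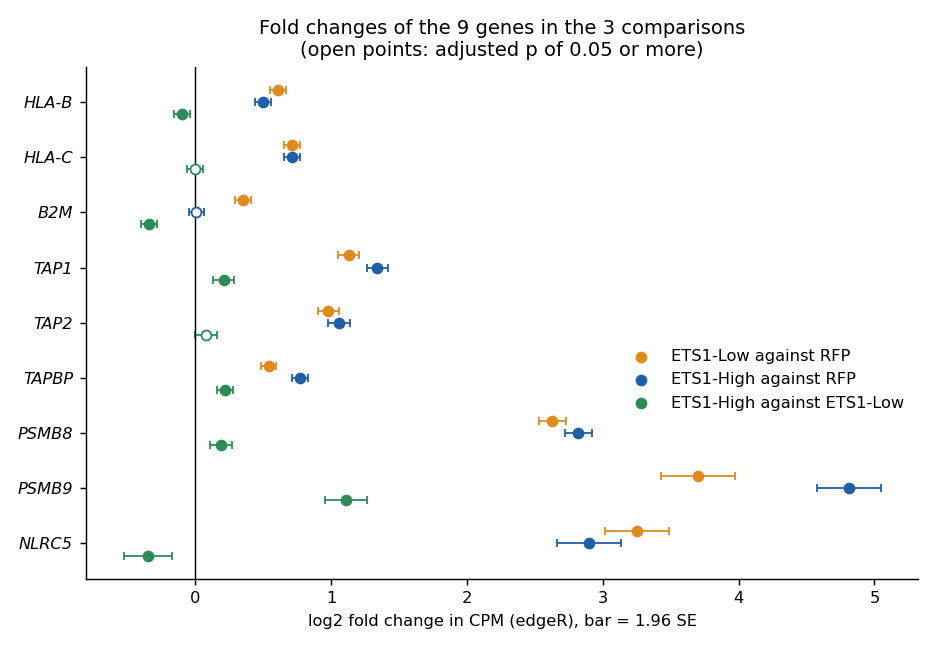
Log2 fold change of each member (point, with its 95% interval, open where not called) for ETS1-High against RFP, ETS1-Low against RFP and ETS1-High against ETS1-Low, from edgeR. Against RFP the members run from PSMB9 (4.81 and 3.70) down to B2M (0.01 and 0.35), and between the ETS1 groups they fall on both sides of 0.

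Between the ETS1 groups the members went in both directions. ETS1-High was higher than ETS1-Low for 4 of 9 members (TAP1, TAPBP, PSMB8 and PSMB9) and lower for 3 (HLA-B, B2M and NLRC5), while HLA-C and TAP2 were not called (edgeR adjusted p under 0.05). Of all genes tested 29.9% were called higher and 29.3% lower here, 59.2% in all, and the members' median log2 difference of 0.08 lay near the 0.00 of all genes. PSMB9 was the only member that differed by at least 2-fold, at 2.15-fold (log2 1.11, SE 0.08, adjusted p = 9.3e-17, edgeR), against 6.05% of all genes at least 2-fold higher. TAP1, TAPBP and PSMB8 were higher by 0.21, 0.22 and 0.19 on the log2 scale (adjusted p = 4.88e-06, 1.14e-08 and 7.83e-05, edgeR). B2M was lower by a log2 difference of -0.34 (adjusted p = 3.13e-14) and NLRC5 by -0.35 (adjusted p = 0.00329), both by edgeR. The HLA-B difference was small, at -0.10 (adjusted p = 0.00146, edgeR). In limma on FPKM neither HLA-B (adjusted p 0.0569 to 0.143) nor NLRC5 (0.0595 to 0.158) passed over 3 settings. HLA-C differed by -0.00 (95% interval -0.06 to 0.06, adjusted p = 0.975, edgeR) and TAP2 by 0.08 (interval 0.01 to 0.15, adjusted p = 0.0645). The order of both depended on the unit: in FPKM, TAP2 averaged 17.5 in ETS1-High against 20.8 in ETS1-Low, and HLA-C 118 against 115. The TAP2 difference passed the edgeR test with all libraries under DESeq2 size factors (adjusted p = 0.0321) and under a filter of at least 10 counts in every library (adjusted p = 0.0457), and also without ETS1-Low replicate 2, ETS1-High replicate 2 or ETS1-High replicate 3 (lowest adjusted p 0.0268).

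The order of the members by level per length changed between groups. In RFP the mean FPKM ran from B2M at 2587 ± 55.1 over HLA-B at 281 ± 13.9, HLA-C at 77.3 ± 0.804 and TAPBP at 25.3 ± 0.763 (mean ± SD, n = 3). TAP1 at 11.7 ± 0.38 and TAP2 at 11.1 ± 1.53 did not differ beyond their spread, and PSMB8 followed at 8.01 ± 0.968. PSMB9 at 0.897 ± 0.215 and NLRC5 at 0.783 ± 0.101 came last and did not differ beyond their spread either. In ETS1-High PSMB8 at 53.3 ± 0.508 FPKM ranked next after the class I chains, above TAPBP at 39.5 ± 0.66 and TAP1 at 27.4 ± 1.01. PSMB9 at 23.1 ± 1.19 came next, above TAP2 at 17.5 ± 0.65 and NLRC5 at 5.5 ± 0.999. Those chains, B2M, HLA-B and HLA-C, were at 2382, 346 and 118 FPKM. In ETS1-Low the order was that of ETS1-High except that TAP2 (20.8 ± 2.96) stood above PSMB9 (10.4 ± 0.936), and TAP1 (23.6 ± 1) and TAP2 did not differ beyond their spread.

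Other genes that act on class I peptides moved with the members in part. Among all genes tested, 37% were called higher and 37.2% lower with ETS1-High, and 37.9% and 36.2% with ETS1-Low. Of 8 loading and trimming genes, 6 were higher and 2 lower with ETS1-High, and 5 were higher and 1 lower with ETS1-Low (median log2 0.21 and 0.23). The aminopeptidases ERAP1 and ERAP2, which trim peptides in the endoplasmic reticulum, and TAPBPL, a tapasin relative that edits peptides, were the 3 with the smallest p. ERAP1 had 31.4, 32.3 and 32.9 CPM in RFP, 102, 104 and 102 in ETS1-Low and 147, 145 and 142 in ETS1-High. Its groups were fully separate, with a log2 fold change of 2.17 and 1.67 (edgeR adjusted p = 9.77e-46 and 2.16e-40). TAPBPL went from a mean of 0.995 CPM in RFP to 4.79 and 8.25, and ERAP2 from 16.5 to 46.4 and 67.4 (ETS1-Low and ETS1-High). Of 10 proteasome genes, 4 were higher and 6 lower with ETS1-High, and 4 were higher and 4 lower with ETS1-Low, with a median of -0.10 and 0.03. The share of this list called higher was near that of all genes in both comparisons. The risers included PSME1 and PSME2, the subunits of the PA28 activator, at log2 1.27 and 1.15 with ETS1-High and 1.14 and 0.88 with ETS1-Low. PSMB10 had 8.74, 8.36 and 8.73 CPM in RFP, 10.7, 12.1 and 10.9 in ETS1-Low and 16.4, 16.3 and 15.6 in ETS1-High. Its log2 fold changes of 0.90 and 0.39 were below those of PSMB8 and PSMB9, and in limma on FPKM its ETS1-Low change did not pass (adjusted p 0.0944 to 0.183 over 3 settings).

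Of 8 other class I chains and class I-like molecules, 7 were higher and 1 lower in each comparison with RFP, with a median log2 fold change of 1.14 and 1.09. For all genes tested the shares were 37% higher and 37.2% lower with ETS1-High, and 37.9% and 36.2% with ETS1-Low. FCGRT, the neonatal Fc receptor, which pairs with B2M, had 37.4, 38.5 and 41.4 CPM in RFP, 187, 184 and 187 in ETS1-Low and 212, 210 and 210 in ETS1-High. These groups did not overlap, and the fold was 5.38 with ETS1-High and 4.75 with ETS1-Low. HLA-F, a chain with limited tissue display, rose from a mean of 0.71 CPM in RFP to 3.24 and 4.57. B2M itself had the smallest fold change of the members with either ETS1 level.

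**Figure D4:**
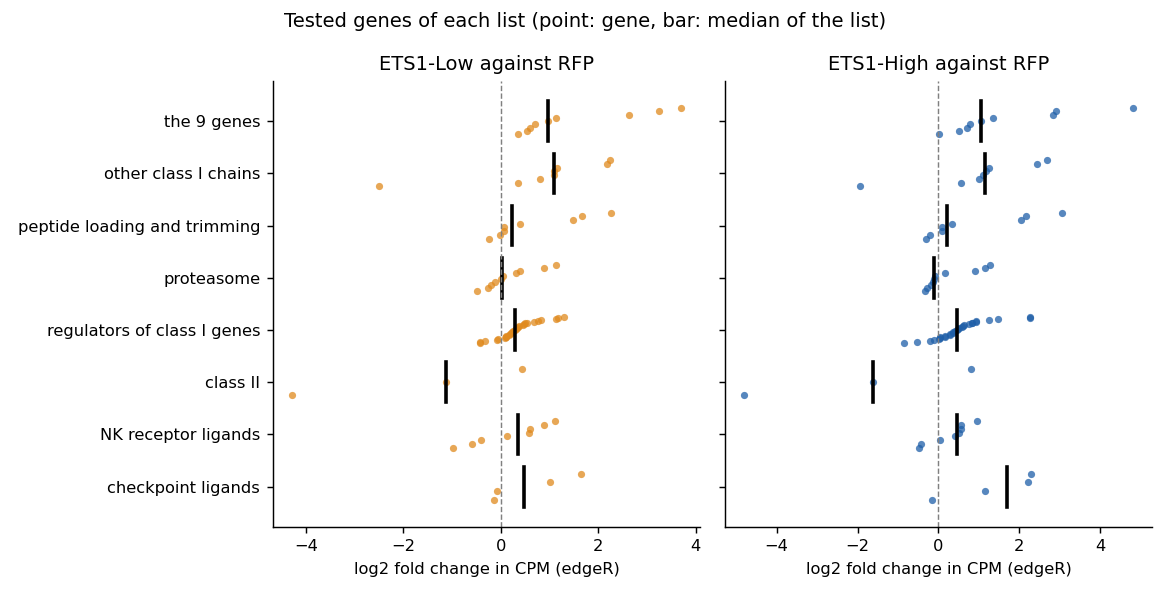
Log2 fold change of the tested genes in the member set and each of the 7 context lists, 1 point a gene with the median of each list as a bar, for ETS1-Low and ETS1-High against RFP. The members and the other class I chains lie mostly above 0, while the proteasome list lies around 0, and HLA-DMB in the class II list is drawn at its fitted value although every ETS1-High library was at or under 3 counts.

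Among known regulators of class I genes, 29 of 30 were tested, of which 22 were higher and 4 lower with ETS1-High and 21 and 4 with ETS1-Low. The shares over all genes tested were 37% higher and 37.2% lower with ETS1-High, and 37.9% and 36.2% with ETS1-Low. IRF1, an interferon-responsive factor that binds ISRE, had 5.05, 4.91 and 5.22 CPM in RFP, 7.78, 7.47 and 6.27 in ETS1-Low and 24.1, 25 and 23.8 in ETS1-High. The ETS1-High libraries stood well above the rest, by 4.79-fold over RFP (log2 2.26) against 1.42-fold for ETS1-Low (log2 0.50), and the ETS1 groups differed from each other by 1.76 (edgeR adjusted p = 1.87e-27). Its order across groups was also that of TAP1, TAPBP, PSMB8 and PSMB9, while NLRC5, HLA-B and B2M were highest in ETS1-Low. The sizes differed, since PSMB9 was 13-fold higher with ETS1-Low. The part of IRF1 in the members' changes was not tested. IRF2, a related factor, rose from a mean of 10 CPM in RFP to 24.6 in ETS1-Low and 28 in ETS1-High. The kinase JAK1, which signals from interferon receptors, went from 280 CPM to 617 in ETS1-Low and 531 in ETS1-High.

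Class II genes, which present peptides taken up from outside the cell, were mostly below the filter. Of 10 listed, 3 passed the filter, 1 higher and 2 lower in each comparison with RFP. Over all genes tested, 37% to 37.9% were higher and 36.2% to 37.2% lower in these comparisons. HLA-DPB1 rose from 4.87 ± 0.259 CPM in RFP to 6.62 ± 0.469 in ETS1-Low and 8.54 ± 0.646 in ETS1-High (mean ± SD, n = 3). HLA-DMB, a chain of the class II peptide exchanger, had 65, 31 and 71 counts in RFP, 3, 0 and 4 in ETS1-Low and 2, 0 and 3 in ETS1-High. Against the floor of 3 counts per library it was at least 16.5-fold lower in ETS1-High than in RFP. HLA-DMA, its partner, went from 0.798 CPM in RFP to 0.361 and 0.259.

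The genome around the members was compared next, since 7 of them share the MHC region of chromosome 6. Within 1 Mb of these 7 members, 129 other genes were tested, of which 32 were higher and 46 lower with ETS1-High (median log2 -0.03) and 35 and 49 with ETS1-Low (median -0.01). Of all genes tested, 37% were higher and 37.2% lower with ETS1-High, 37.9% and 36.2% with ETS1-Low, and 29.9% and 29.3% between the ETS1 groups. For B2M on chromosome 15 the neighbours moved the same way as the gene. Its 27 tested neighbours within 1 Mb had a median log2 fold change of 0.27 with ETS1-Low (20 higher, 1 lower), -0.04 with ETS1-High (6 higher, 8 lower) and -0.38 between ETS1-High and ETS1-Low (1 higher, 20 lower). Over the 157 genes within 10 Mb the medians were 0.20, -0.10 and -0.31, and the B2M value less that median was 0.15, 0.11 and -0.03. The part of this regional shift in the B2M differences was not tested. For NLRC5 the 35 neighbours within 1 Mb had medians of -0.09 with ETS1-Low and -0.12 with ETS1-High, beside its own 3.25 and 2.90.

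**Figure D5:**
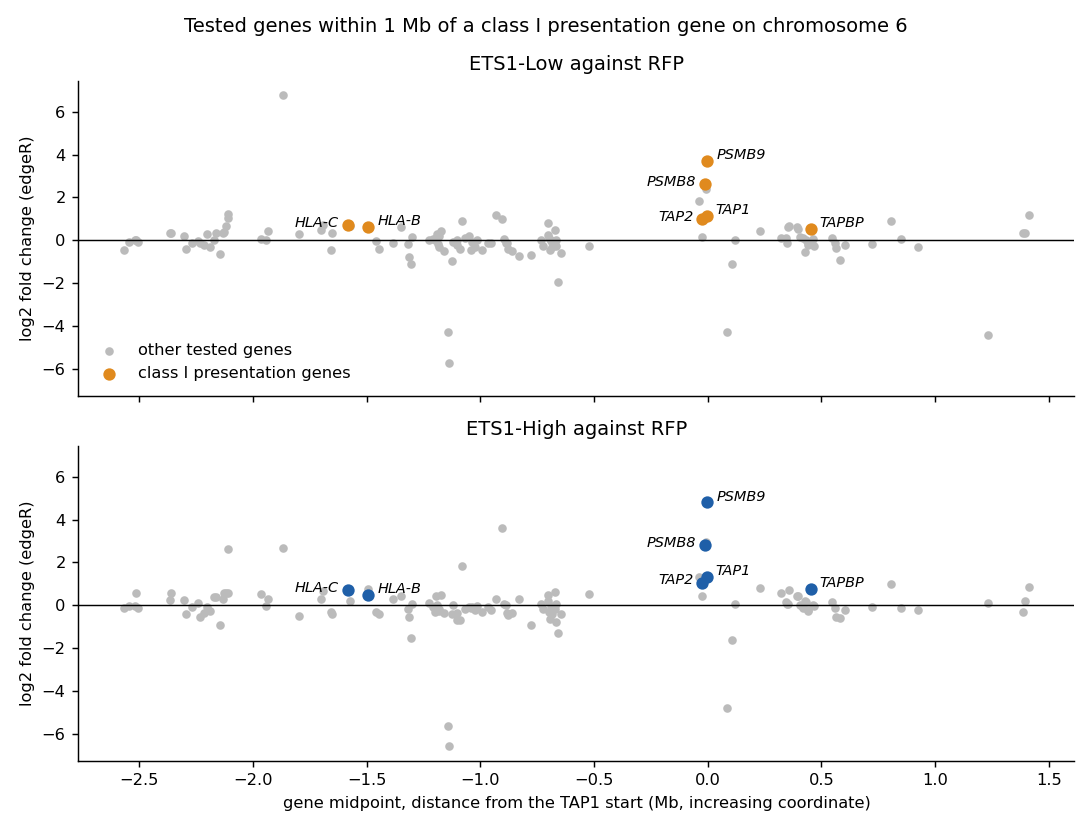
Log2 fold change of tested genes within 1 Mb of the chromosome 6 members against the distance of the gene's midpoint from the TAP1 start in Mb, for ETS1-Low (upper panel) and ETS1-High (lower panel) against RFP, members labelled and neighbours in grey. The neighbours scatter around 0, with medians of -0.01 and -0.03, and PSMB9 and PSMB8 stand well above most of them.

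The genes whose CPM pattern over the 9 libraries was most like that of NLRC5 were CXCL16 (r = 0.998), GPR108 (r = 0.997) and PRR5L (r = 0.996), among 12380 genes compared. CXCL16, a membrane-bound chemokine, went from a mean of 2.03 CPM in RFP to 15.2 with the lower and 11.5 with the higher ETS1 level, while GPR108 had 27.1, 37.9 and 36.3. For B2M they included ADSL (r = 0.997), an enzyme of purine synthesis, which had 100, 129 and 100 CPM, and GTPBP4 (r = 0.996), with 105, 140 and 107. These correlations describe 9 libraries in 3 groups and largely restate the order of the group means.

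ETS1 levels followed the labels. Its mean was 2 CPM in RFP, 10.6 in the ETS1-Low libraries and 19.1 in the ETS1-High ones, without overlap, and all 8 Ewing sarcoma markers were detected in every group. Their summed level was 2739 to 2859 CPM in RFP, 4346 to 4420 in ETS1-Low and 4317 to 4330 in ETS1-High, so the sum was higher in both ETS1 groups. The markers did not rise alike. With groups in that order, CCND1 averaged 1548, 2518 and 2498, the largest part of the rise. JAK1, also listed among the class I regulators, averaged 280, 617 and 531, and LIPI 19.4, 61.2 and 60.5. Smaller changes were seen for NR0B1 (335, 417 and 369) and NKX2-2 (89.5, 104 and 96.2). Total expected counts ran from 39484704 to 46654734 per library. Markers of T cells were at 0 in RFP and ETS1-Low and at 0 except CD8A (up to 3 counts) in ETS1-High, and the leukocyte marker PTPRC had at most 6 counts. The summed myeloid markers were 3.03 to 4.01 CPM in RFP, 0.267 to 0.476 in ETS1-Low and 0.556 to 1.09 in ETS1-High. These are low levels, with at most 104 counts of a myeloid marker in any RFP library. Summed epithelial markers were 78.1 to 82.5 CPM in RFP, 156 to 165 in ETS1-Low and 110 to 112 in ETS1-High, nearly all of it KRT18. In the same order, endothelial ones were 1.66 to 2.12, 3.56 to 3.99 and 4.97 to 5.56, nearly all PECAM1. Fibroblast ones were 105 to 120, 47.2 to 51.2 and 73.6 to 81.9, and did not move together. PDGFRB had means of 74.2, 20.5 and 26 CPM, and COL1A1 39.3, 28.3 and 50.9. DCN and LUM were highest in ETS1-High, at 0.914 and 0.385 CPM. The part of these marker lists in the members' changes was not tested. RFP replicate 1 held 20 counts of CD74 and 6 of HLA-DRA, against at most 3 and 1 elsewhere. Without it every member kept its call against RFP, with log2 values of 4.63 and 3.52 for PSMB9, 2.73 and 2.54 for PSMB8 and 3.16 and 3.50 for NLRC5 (ETS1-High and ETS1-Low).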

How the data were processed

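The 9 libraries were grouped by their labels into RFP, ETS1-Low and ETS1-High, 3 each. Per the file headers, the authors deposited RSEM expected counts and FPKM for 58381 genes. Per the submitters' processing notes, cutadapt 4.4, STAR 2.7.3, Subread 2.0.3 with featureCounts and limma 3.38.3 were used with GRCh38, and the annotation release is not given in the sources used here. The deposited expected counts, of which 9 to 10.3% per library were not whole, were rounded. They were tested in 1 fit of all 9 libraries with edgeR 4.0.16 in R 4.3.3 (TMM scaling, filterByExpr, robust quasi-likelihood test, Benjamini-Hochberg over 17235 genes), and checked on simulated data. CPM used the same scaling. The authors' FPKM served for levels between genes, for ratios and for limma 3.58.1 (pseudocount 1). DESeq2 1.42.0 was an alternative. Intervals are 95%. Positions came from GENCODE release 44 (GRCh38), promoter windows from RefSeq (GRCh38.p14).

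All 9 members are described. From each of 7 lists of related genes (81 genes), those with the 3 smallest p-values for ETS1-High against RFP were named, with IRF1, PSMB10 and the constitutive partners. The genes most like NLRC5 and B2M were the 3 with the highest correlation where the mean count reached 100. Of the genes these rules select, 3 are not reported here. HLA-DRA, CD74, CIITA, MICA, ULBP1, ENSG00000250264 and PSMB8-AS1 were named outside this rule, after their values were seen. So were CD8A and the other single genes given from the marker lists, apart from JAK1. The members and lists were chosen with earlier results of these data known. Libraries of 1 group differed by more than sampling noise, and none was merged. Library totals of 39484704 to 46654734 limit precision only for genes at low counts.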

Additional observations from a re-analysis of the deposited data

Results flagged for a closer look

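The ETS1-High and ETS1-Low groups share their RFP control, so a difference between their changes from RFP is the direct test of ETS1-High against ETS1-Low. It was passed by 25 named genes (edgeR adjusted p under 0.05), and by 59.2% of all 17235 genes tested. Most named genes outside the members were picked for a small p in ETS1-High against RFP, so their number passing is no result about them. Values are log2 differences, ETS1-High less ETS1-Low. Of the members, PSMB9 differed by 1.11, TAPBP by 0.22, TAP1 by 0.21 and PSMB8 by 0.19, all higher in ETS1-High. NLRC5 at -0.35, B2M at -0.34 and HLA-B at -0.10 were lower there. Of the loading and trimming genes, TAPBPL was at 0.78, ERAP2 at 0.54 and ERAP1 at 0.49. Among proteasome genes, PSMB10 was at 0.52, PSMB7 at 0.34, PSME2 at 0.27 and PSME1 at 0.13, and PSMB6 at -0.19 and PSMB5 at -0.14. IRF1 at 1.76 and IRF2 at 0.19 were higher in ETS1-High, and the kinase JAK1 at -0.22 was lower. The class I-like chains HLA-F and FCGRT were at 0.50 and 0.18, and the class II chain HLA-DPB1 at 0.37. PDCD1LG2 had the largest of these differences at 2.42, and the natural killer receptor ligands PVR and MICB were at 0.07 and -0.19.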

How the results depend on the processing

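Of 27 member results (9 genes in 3 comparisons), 24 were called, and 458 of their 480 alternative tests kept direction and call. The rest kept their direction only, under the test against 2-fold or in limma on FPKM. The 3 results not called (B2M with ETS1-High, HLA-C and TAP2 between the ETS1 groups) did not keep 1 direction, and 52 of their 60 alternative tests were not called either. Tested against a minimum change of 2-fold with edgeR's glmTreat, 2608, 2530 and 904 genes were called in ETS1-High against RFP, in ETS1-Low against RFP and between the ETS1 groups. Under that test, members called higher numbered 4 (from 8), 4 (from 9) and 0 (from 4), and members lower in the last comparison 0 (from 3). Genes of the related lists called higher were then 15, 9 and 3 (from 47, 44 and 32), and lower 1, 2 and 0 (from 18, 14 and 13). A test against a larger minimum change calls fewer genes by construction. In the 3 limma fits on FPKM, members called lower numbered 1 in ETS1-High against RFP (B2M, at -0.12 in each) and 1 between the ETS1 groups (B2M). In limma on FPKM, PSMB5 was at -0.09 and PSMB6 at -0.13 for ETS1-Low against RFP. The FPKM scale moved the median of all genes by -0.11, -0.13 and 0.03 on the log2 scale, and the cause of each reversal was not tested. Less the median of genes within 10 Mb, PSMB7 changed sign to 0.08 in ETS1-Low against RFP and to -0.10 between the ETS1 groups. As a ratio of CPM, PSMB10 to PSMB7 reversed to 0.18 between the ETS1 groups. The neighbour medians gave no counts of calls. With the replicate number as a block, 12701, 12729 and 10122 genes were called (from 12785, 12773 and 10196), and 0 member calls changed. Same-numbered libraries did not deviate together (r from -0.0295 to 0.0276), so the numbers do not pair the samples. With each library left out in turn, only TAP2 in ETS1-High against ETS1-Low changed its call among the members, passing in 3 of 9 fits.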

Other observations

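Ligands that T cells and natural killer cells read beside class I molecules were compared too. PDCD1LG2, a ligand of the inhibitory receptor PD-1, had 1.06, 1.92 and 1.27 CPM in RFP, 1.48, 1.09 and 1.29 in ETS1-Low and 7.18, 7.27 and 6.14 in ETS1-High. Its ETS1-High libraries stood above all others, by 4.85-fold over RFP, while the ETS1-Low value was -0.14 on the log2 scale (95% interval -0.50 to 0.22). CD274, the other PD-1 ligand, was low throughout, with 10, 13 and 6 counts in RFP, 25, 30 and 24 in ETS1-Low and 44, 37 and 41 in ETS1-High. Its log2 fold change was 2.22 with ETS1-High and 1.65 with ETS1-Low, and its difference between the ETS1 groups did not pass (0.57, edgeR adjusted p = 0.0667). LGALS9, a secreted galectin, rose from a mean of 1.03 CPM in RFP to 2.07 in ETS1-Low and 2.27 in ETS1-High.

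Of 11 ligands of natural killer cell receptors, 8 were tested, of which 4 were higher and 2 lower in each comparison with RFP. The share called in either direction was thus near that of all genes tested, 74.2% with ETS1-High and 74.1% with ETS1-Low. PVR and NECTIN2, which bind the activating receptor DNAM-1 and the inhibitory receptor TIGIT, rose from means of 60.8 and 75.2 CPM in RFP to 113 and 113 in ETS1-Low and 118 and 112 in ETS1-High. MICB, a stress-induced ligand of NKG2D, rose from 42.1 CPM to 63.8 in ETS1-Low and 56 in ETS1-High. The 2 lower genes were MICA and ULBP1, so the list did not move in 1 direction. Against RFP, MICA was at log2 -0.42 with ETS1-High and -0.41 with ETS1-Low, and ULBP1 at -0.48 and -0.58 (edgeR).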
